A study of Mus musculus with 34 samples.

Results

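The core circadian clock genes described here are Arntl, Clock, Npas2, Per1, Per2, Per3, Cry1, Cry2, Nr1d1 and Nr1d2. They were taken by gene symbol from a table of expected RNA counts, in which each symbol has 1 row, so 10 of 23011 genes are described. The libraries are whole skeletal muscle RNA of female mice whose strain the labels do not give. Soleus, a muscle rich in slow fibres, and plantaris, a muscle rich in fast fibres, were collected at 24 months ("aged") or 6 months ("young"). Trained mice had 8 weeks of progressive weighted wheel running (PoWeR), voluntary running against a load on the wheel that is raised over time. Their controls were sedentary mice of the same age. All mice were fasted overnight before collection, and the wheels of the trained mice were locked for 24 hours, so no library was taken directly after a run. Of the 34 libraries, each aged sedentary group has 5 and each of the other 6 groups has 4. Aged libraries are named here by the number in their label, and young ones by 1 to 4 in order of deposition, as a name and not a pairing. The titles of the young labelled plantaris libraries each join 2 numbers, while an aged title carries 1 number. Most young soleus titles carry a longer run of digits that may join numbers too, and digits recur between both sets of young titles. The labels do not say whether these are animals, pools or shared animals. The hour of collection is not given, so each library is a reading at an unstated hour of the day.

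Total counts ran from 15237626 to 26250461 per library. The titles of the 9 aged plantaris libraries name soleus while their source field names plantaris. Their Myh4, the fast IIb myosin heavy chain, lay between 13130 and 72476 CPM, counts scaled to a common library size and composition, as in fast muscle. The 8 young libraries labelled plantaris go against their label: their Myh4 was 14.4 to 41.3 CPM and their Myh7, the slow myosin, 20099 to 32738 CPM, inside or near the range of the labelled soleus libraries (16125 to 30458 CPM). They are called "labelled plantaris" below and enter no test against aged plantaris. In bulk muscle RNA, fewer cells of a type and less RNA per cell cannot be told apart.

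The clock is a feedback loop of transcription that runs in most cells. The proteins of Arntl (BMAL1) and of Clock or its relative Npas2 pair up and activate genes that carry E-box motifs, among them the Per, Cry and Nr1d genes. PER and CRY proteins then inhibit that pair, while the nuclear receptors encoded by Nr1d1 and Nr1d2 (REV-ERB-alpha and REV-ERB-beta) repress Arntl and Npas2 through RORE motifs. Arntl RNA and the RNA of Per and Nr1d genes therefore peak at different times of day. In skeletal muscle the loop is known for setting daily rhythms of fuel use, and feeding, glucocorticoids and muscle contraction are known inputs to it.

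Promoters of the members that results below turn on are shown first, because the loop acts through short motifs there. RefSeq start sites (GRCm38.p6) were held for 9 of the 10 members, with 13 start sites in all. Per2 is not among them. The 250 bases before each start were searched on both strands for the E-box CACGTG, the D-box TTANGTAA, to which the factors Dbp, Tef, Hlf and Nfil3 bind, and the RORE core TAGGTCA. These motifs share no bases in the matches found. Capitals mark the matches. The Arntl window is chr7:113207215-113207464 on the plus strand, and Per1 is chr11:69098699-69098948 on the plus strand. Per3 is chr4:151044666-151044915 and Cry1 is chr10:85185055-85185304, both on the minus strand.
Arntl: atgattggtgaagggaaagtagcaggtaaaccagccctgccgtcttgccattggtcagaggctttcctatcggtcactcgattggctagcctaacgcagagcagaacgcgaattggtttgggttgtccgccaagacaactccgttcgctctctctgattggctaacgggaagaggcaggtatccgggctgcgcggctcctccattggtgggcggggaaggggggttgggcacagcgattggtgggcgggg
Per1: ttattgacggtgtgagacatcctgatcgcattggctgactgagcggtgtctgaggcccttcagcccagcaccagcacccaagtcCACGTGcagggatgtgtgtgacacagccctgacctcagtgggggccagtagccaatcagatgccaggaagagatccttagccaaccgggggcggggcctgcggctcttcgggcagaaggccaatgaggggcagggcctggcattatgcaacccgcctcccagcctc
Per3: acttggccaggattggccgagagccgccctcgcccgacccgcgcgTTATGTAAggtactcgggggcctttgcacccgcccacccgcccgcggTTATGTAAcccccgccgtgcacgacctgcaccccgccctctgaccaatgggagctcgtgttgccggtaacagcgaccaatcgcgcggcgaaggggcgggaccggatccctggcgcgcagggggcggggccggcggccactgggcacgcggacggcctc
Cry1: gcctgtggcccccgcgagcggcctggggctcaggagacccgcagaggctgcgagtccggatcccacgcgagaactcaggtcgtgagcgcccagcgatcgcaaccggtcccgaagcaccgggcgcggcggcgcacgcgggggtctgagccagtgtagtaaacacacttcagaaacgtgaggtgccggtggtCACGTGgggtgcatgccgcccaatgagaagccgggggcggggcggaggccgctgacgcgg

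The Per1 window holds an E-box whose first base lies at position -166 relative to the start, and the Cry1 window one at -60. Per3 holds a pair of D-boxes, at -205 and -158. No other member window held a match, which says only that these letters are not in these windows. Among all 32851 RefSeq windows of this length, 6.02% held the E-box, 2.06% the D-box and 2.23% the RORE core. A match is a description of the letters and not evidence of binding in these muscles.

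Levels of different genes were compared per kilobase of merged exons. On that scale Nr1d1 was the most abundant member in each of the 8 groups, with group means of 34.9 to 55.8 CPM per kilobase. Nr1d2 followed at 14.2 to 23.0. Per1 (6.92 to 13.4) and Cry2 (7.43 to 10.4) came next and changed places between groups, so their order is not fixed. Clock (3.0 to 4.45) and Cry1 (3.56 to 5.0) lay close together below them. Arntl crossed these ranks with age, at 1.34 to 1.53 CPM per kilobase in the young groups and 4.80 to 5.61 in the aged groups. Per3 (0.81 to 1.67), Per2 (0.56 to 1.68) and Npas2 (0.20 to 0.86) were scarce, and in the young groups Arntl, at 1.34 to 1.53, was among them. Npas2 stood well below Clock, the partner it can replace, in both ages.

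**Figure D1:**
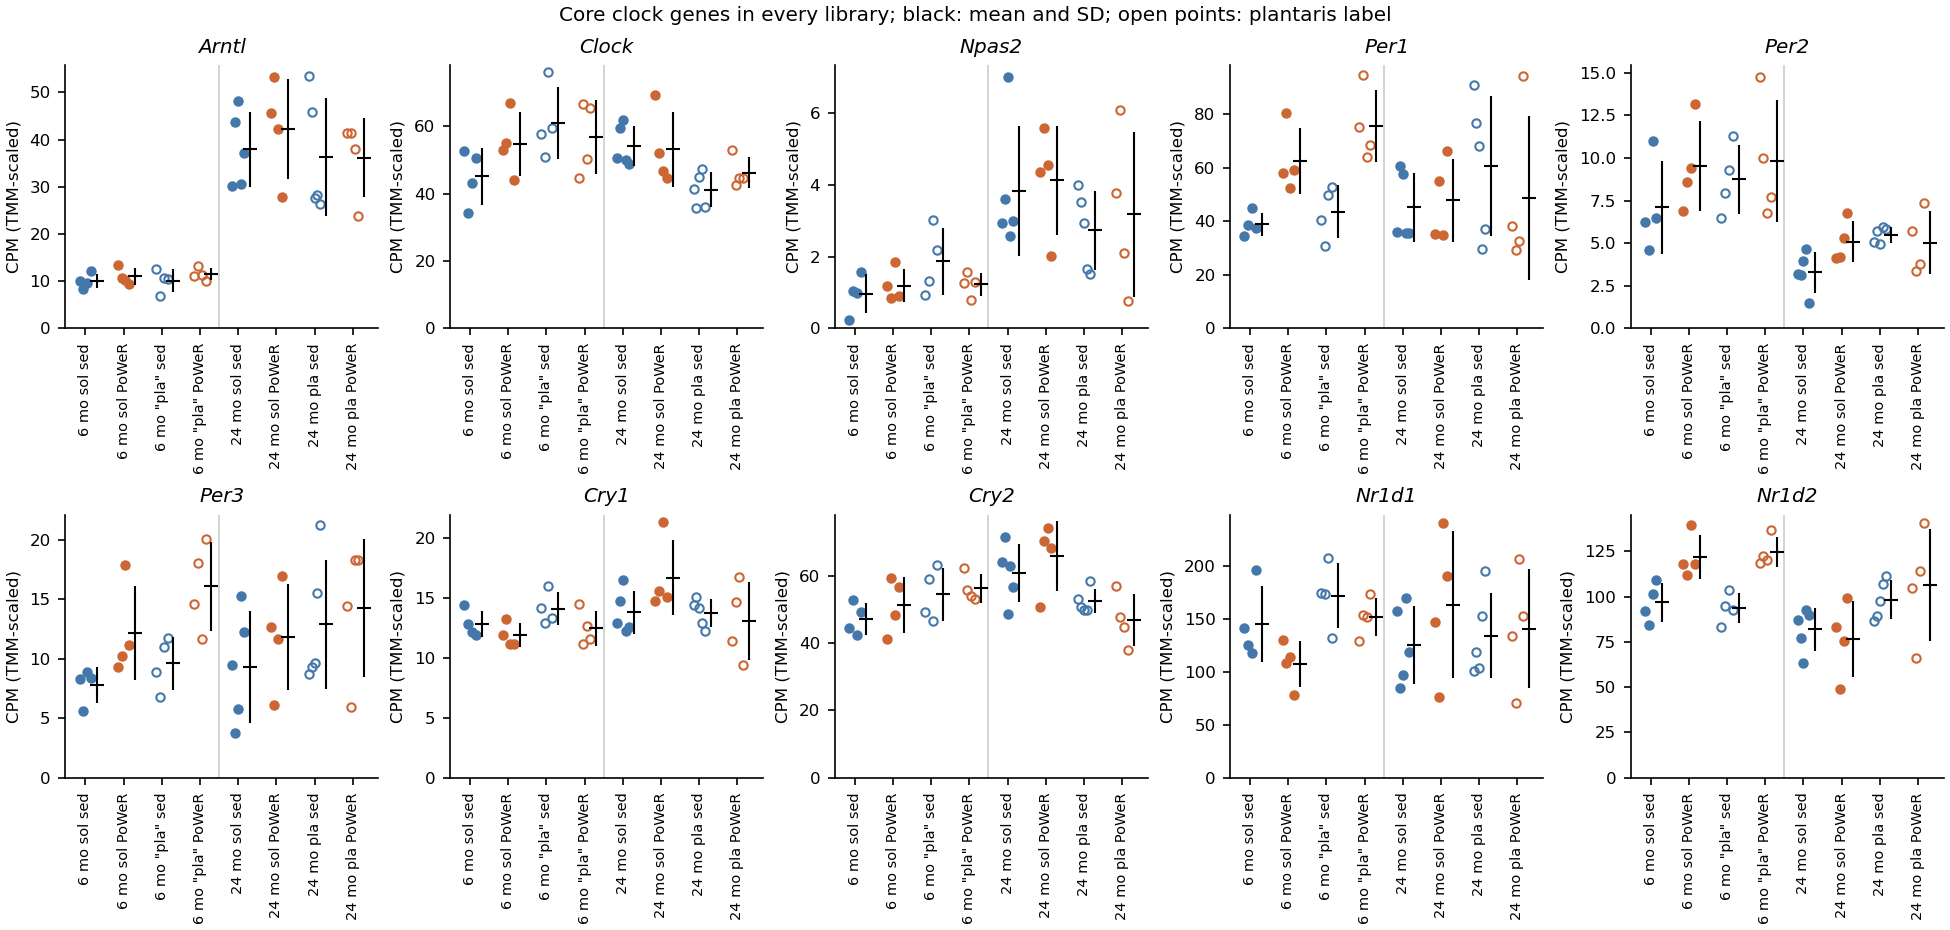
CPM (vertical axis, linear) of the 10 clock genes in every library, by group (horizontal axis). Points are libraries, blue sedentary and orange PoWeR, filled for soleus and open for the plantaris label; black bars are group mean and SD, and the grey line parts 6 from 24 months. Arntl lies between 6.89 and 13.4 CPM in all young libraries and between 23.8 and 53.4 CPM in all aged ones.

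Age was compared within soleus, apart for sedentary and trained mice. Arntl, the activator without which the loop stops, was about 3.9 times higher at 24 months in both. The hour of collection is not given for either age, so a difference of hour between the ages cannot be told apart from age. In sedentary soleus 4 of 10 members passed the test (Arntl, Npas2 and Cry2 higher, Per2 lower), and 36.2% of the 14934 genes tested did. In PoWeR soleus 6 of 10 passed (Arntl, Npas2, Cry1 and Cry2 higher, Per2 and Nr1d2 lower), and 37.9% of all genes did. A call here is an adjusted p under 0.05 from edgeR's quasi-likelihood test over all genes. The share of members called in sedentary soleus is therefore near that of all genes. Arntl ranked 89 by p and 468 by absolute log2 fold change in sedentary soleus, and 77 and 583 in PoWeR soleus. The libraries of the ages did not overlap for 2 members in sedentary and 5 in PoWeR soleus, against 32.9% and 30.5% of all genes. The median absolute log2 fold change of the members was 0.31 in sedentary and 0.55 in PoWeR soleus, against 0.38 and 0.40 over all genes.

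Among the activators, Arntl in sedentary soleus was at 30.2, 43.7, 48.1, 30.5 and 37.1 CPM at 24 months and at 10.1, 8.42, 9.60 and 12.1 CPM at 6 months. In PoWeR soleus it was at 45.6, 53.2, 42.2 and 27.9 CPM at 24 months and at 13.4, 10.7, 10.3 and 9.46 CPM at 6 months. The lowest aged library was well above the highest young library in each pair of groups, so the ages did not overlap. The log2 fold change was 1.96 (SE 0.18, adjusted p = 1.21e-07) in sedentary mice and 1.95 (SE 0.18, adjusted p = 2.37e-07) in trained mice. Both calls held in every fit missing 1 library and under each other setting tried, with log2 fold changes of 1.82 to 2.10.

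Npas2, which encodes the alternative partner of BMAL1, was also higher, at a low level. Sedentary soleus had 2.93, 3.6, 7.0, 2.58 and 3.0 CPM at 24 months and 0.248, 1.05, 0.980 and 1.57 CPM at 6 months. PoWeR soleus had 4.36, 5.59, 4.56 and 2.01 CPM at 24 months and 1.18, 0.847, 1.84 and 0.893 CPM at 6 months. Every aged library was above every young library of its training group. The log2 fold change was 2.02 (SE 0.42, adjusted p = 0.000854) in sedentary and 1.79 (SE 0.42, adjusted p = 0.00235) in PoWeR soleus. Clock, the main partner, did not pass: its means were 54.2 ± 6.04 (SD, n = 5) and 45.2 ± 8.45 CPM (SD, n = 4) in sedentary soleus, with a log2 fold change of 0.31 (adjusted p = 0.103). In PoWeR soleus Clock had a log2 fold change of -0.04 (SE 0.15, adjusted p = 0.854).

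Of the inhibitors, Per2 was the one that fell. Sedentary soleus had 3.21, 3.12, 3.94, 4.68 and 1.47 CPM at 24 months against 6.27, 4.60, 11 and 6.49 CPM at 6 months, where 1 aged library reached into the young range. PoWeR soleus had 4.13, 4.21, 5.29 and 6.75 CPM against 6.91, 8.57, 9.40 and 13.2 CPM, with no overlap. The log2 fold change was -1.07 (SE 0.29, adjusted p = 0.0064) in sedentary and -0.90 (SE 0.29, adjusted p = 0.021) in PoWeR soleus. The PoWeR call held in 5 of 8 left-out fits, each missing 1 library. Its relatives did not pass: Per1 had log2 fold changes of 0.26 (adjusted p = 0.348) and -0.38 (adjusted p = 0.184). Per3 had 0.30 (adjusted p = 0.538) and -0.04 (adjusted p = 0.944).

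Of the Cry genes, which encode the direct repressors of the BMAL1 pair, Cry2 was called higher with age in both training groups and Cry1 in PoWeR soleus. Cry2 in sedentary soleus was at 64.2, 71.5, 48.7, 63.0 and 56.8 CPM at 24 months and 44.6, 53.0, 42.4 and 49.3 CPM at 6 months, with overlap. Its log2 fold change was 0.41 (SE 0.13, adjusted p = 0.0195) in sedentary and 0.36 (SE 0.14, adjusted p = 0.0443) in PoWeR soleus. The Cry2 call was lost in 4 of 9 left-out fits for sedentary mice (adjusted p up to 0.102), and for PoWeR mice in 5 of 8 such fits and under all 5 other settings (adjusted p up to 0.177). Cry1 in PoWeR soleus was at 14.8, 15.6, 21.4 and 15.1 CPM at 24 months and 11.9, 13.3, 11.1 and 11.2 CPM at 6 months, with no overlap. Its log2 fold change there was 0.50 (SE 0.14, adjusted p = 0.00733), against 0.15 (SE 0.13, adjusted p = 0.376) in sedentary soleus.

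Of the REV-ERB genes, which encode the repressors of Arntl, Nr1d2 was lower with age in PoWeR soleus. Its values were 83.4, 48.8, 75.3 and 99.4 CPM at 24 months and 118, 112, 140 and 118 CPM at 6 months, without overlap. The log2 fold change was -0.67 (SE 0.16, adjusted p = 0.0037), against -0.19 (SE 0.16, adjusted p = 0.357) in sedentary soleus. Nr1d1 had -0.16 (SE 0.29, adjusted p = 0.694) in sedentary and 0.61 (SE 0.30, adjusted p = 0.126) in PoWeR soleus. Nr1d1 shares 263 exon bases, 8.55% of its merged exons, with Thra on the opposite strand, and whether counting used strand is not given in the sources used here, so reads in that stretch cannot be assigned. Thra, a thyroid hormone receptor gene, was at 53.6 to 61.0 CPM in aged and 73.2 to 84.4 CPM in young sedentary soleus. The other shared stretch with a gene in the table is 295 bases of Cry2 (4.67%) with D930015M05Rik.

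**Figure D2:**
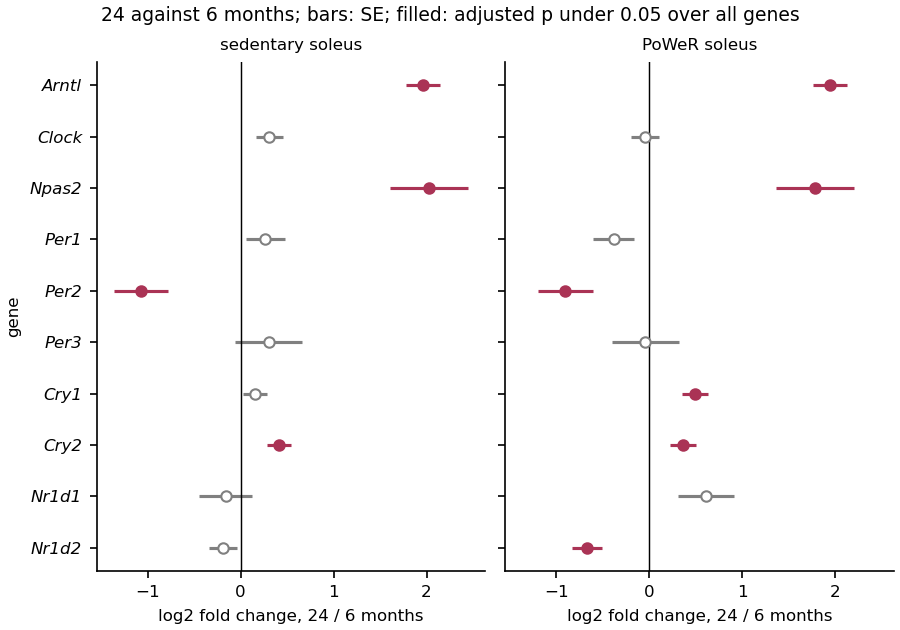
Log2 fold change of 24 over 6 months (horizontal axis) for each clock gene (vertical axis), in sedentary soleus (left) and PoWeR soleus (right). Points are edgeR estimates, bars 1 SE, filled points an adjusted p under 0.05; Arntl stands at 1.96 and 1.95 and Per2 at -1.07 and -0.90.

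Whether age and training acted on each other was tested as an interaction in soleus. No member passed, and 0% of the 14934 genes did. At an unadjusted p under 0.05 there were 2 members, against 13.4% of all genes, and DESeq2 also called 0 members. These were Per1, at a log2 difference of -0.64 (SE 0.30, adjusted p = 0.372), and Nr1d2, at -0.48 (SE 0.23, adjusted p = 0.37). The Arntl difference between ages did not differ detectably between sedentary and trained mice, at -0.02 with an interval of 2 SE to each side from -0.52 to 0.48.

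Among 11 other transcription factors of the clock loops, 1 was called higher and 5 lower with age in sedentary soleus, where 36.2% of all genes were called. Their median log2 fold change was -0.39 against 0.03 over all genes. In PoWeR soleus 5 were lower and none higher, where 37.9% of all genes were called, with a median of -1.21 against 0.02. The PoWeR count is near the share of all genes, and neither count was tested against it. Hlf, a D-box activator and output of the loop, fell by 1.63 on the log2 scale in sedentary soleus (SE 0.21, adjusted p = 7.36e-06) and by 1.57 in PoWeR soleus (SE 0.22, adjusted p = 2.16e-05). Dbp, its relative and a direct E-box target, fell by 1.54 in sedentary soleus (adjusted p = 0.0369). Bhlhe41, a repressor that competes for E-boxes, fell by 1.03 (adjusted p = 0.0221) and 1.21 (adjusted p = 0.0126). Arntl2, a paralogue of Arntl, rose by 2.50 in sedentary soleus (SE 0.62, adjusted p = 0.0035). In PoWeR soleus Rora, which encodes an activator at RORE motifs, fell by 1.33 (SE 0.16, adjusted p = 6.32e-06), and Ciart, another repressor of the loop, fell by 1.37 (adjusted p = 0.0113).

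Of 15 regulators of clock proteins, 14 were tested, with 3 higher and 2 lower with age in sedentary soleus and 2 higher and 3 lower in PoWeR soleus. Those 5 called genes in each contrast stand against 36.2% and 37.9% of all genes, so the counts are near the background. Gsk3b, a kinase that marks clock proteins for turnover, fell by 0.54 (adjusted p = 0.00161) and by 0.84 (adjusted p = 4.68e-05). Csnk1e, a casein kinase that phosphorylates PER proteins, rose by 0.38 (adjusted p = 0.024), and Prkaa1, a catalytic subunit of the energy sensor AMPK, by 0.38 (adjusted p = 0.0187), both in sedentary soleus. In PoWeR soleus Prkaa2, the other catalytic AMPK subunit, fell by 0.67 (adjusted p = 6.48e-05) and Ncor1, a co-repressor that REV-ERB proteins recruit, by 0.59 (adjusted p = 0.000254). Hdac3, the deacetylase of that co-repressor complex, rose by 0.28 there (adjusted p = 0.0202).

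Of 10 glucocorticoid targets, 2 were higher and 0 lower in sedentary soleus, and 1 was higher and 2 lower in PoWeR soleus. Ddit4, an inhibitor of growth signalling, fell by 3.17 in PoWeR soleus (SE 0.66, adjusted p = 0.00207). Klf9, a transcription factor that the receptor induces, fell by 0.38 there (adjusted p = 0.0346), and its relative Klf15 rose by 0.67 in sedentary soleus (adjusted p = 0.0151). Pdk4, a fasting-induced kinase that restrains glucose oxidation, was higher in both, by 0.75 (adjusted p = 0.00476) and 1.12 (adjusted p = 0.000256). Of 10 immediate early genes, which respond within minutes to contraction or handling, 2 were higher and 1 lower in sedentary soleus, and 0 were higher and 2 lower in PoWeR soleus. Both lists thus had smaller shares called than the 36.2% and 37.9% of all genes. Fos rose by 2.36 in aged sedentary soleus (adjusted p = 0.00355), and Nr4a3 fell by 1.56 (adjusted p = 0.0158). In PoWeR soleus Nr4a3 fell by 1.92 (adjusted p = 0.0113). Dusp1 changed by 0.67 in sedentary (adjusted p = 0.0229) and -1.05 in PoWeR soleus (adjusted p = 0.00206).

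Other measures moved with age in the same soleus libraries. Totals were 15453397 to 17275490 at 24 months and 16840043 to 22072256 at 6 months. Mitochondrial genes took 13.1 to 14.5% of counts in aged and 21.3 to 23.1% in young sedentary soleus, and 10.6 to 13.4% against 10.7 to 18.5% in PoWeR soleus. The summed level of 6 fast fibre markers was 11274 to 13766 CPM in aged and 7356 to 9473 CPM in young sedentary soleus. For 6 slow fibre markers it was 34256 to 43382 and 30168 to 38221 CPM. The 4 markers of fibro-adipogenic progenitors, resident connective tissue cells, summed to 125 to 313 CPM in aged and 257 to 437 CPM in young sedentary soleus. In PoWeR soleus they summed to 214 to 244 and 315 to 705 CPM, and all 4 were called lower. No marker of any list was at 0 throughout a group. The part of these measures, or of the unstated hour of collection, in the age differences was not tested.

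In the libraries with the plantaris label, ages can be set side by side only as levels, since the muscles differ. Aged plantaris had Arntl at 53.4, 45.9, 27.7, 28.2 and 26.3 CPM in sedentary and 41.3, 41.4, 38 and 23.8 CPM in trained mice. The young labelled plantaris libraries had 12.6, 6.89, 10.6 and 10.4 CPM and 11.2, 13.3, 11.4 and 10.1 CPM. Aged libraries thus lay above young ones here too. Per2 means were 5.50 ± 0.46 (SD, n = 5) and 5.04 ± 1.84 CPM (SD, n = 4) in the aged and 8.74 ± 2.04 and 9.81 ± 3.57 CPM (SD, n = 4 each) in the young groups. The sedentary groups did not overlap, at 4.93 to 5.94 CPM aged and 6.48 to 11.3 CPM young. The PoWeR groups did, at 3.36 to 7.33 CPM aged and 6.77 to 14.8 CPM young.

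The effect of PoWeR was compared with sedentary mice within each age and muscle label. In aged soleus and aged plantaris 0 of 10 members passed with edgeR and with DESeq2, where 0.857% of 14934 and 0.0262% of 15280 genes did. At an unadjusted p under 0.05 there was 1 member in aged soleus, against 12.8% of all genes, and none in aged plantaris, against 9.86%. In young soleus 1 of 10 passed, against 12.9% of all genes. In the young labelled plantaris libraries 0 passed, against 0.223% of all genes, with 2 members at an unadjusted p under 0.05 and 0 by DESeq2. The PoWeR and age comparisons share their groups, so they are not independent of each other.

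Per1, the fast-responding period gene whose E-box is shown above, was the member called in young soleus. It was at 34.7, 38.8, 44.9 and 37.5 CPM in sedentary and at 58.0, 80.7, 52.6 and 59.3 CPM in PoWeR mice. All 4 trained libraries were above all 4 sedentary libraries. The log2 fold change was 0.71 (SE 0.22, adjusted p = 0.0421), a rank of 1692 by p. The call held in 1 of 8 left-out fits, the one without PoWeR library 1, and in 3 of 5 other settings, with adjusted p from 0.0117 to 0.131. In the young labelled plantaris libraries Per1 was at 40.6, 30.9, 49.9 and 52.8 CPM in sedentary and 75.4, 94.6, 63.9 and 68.5 CPM in PoWeR mice, again without overlap. That log2 fold change was 0.78 (SE 0.38, adjusted p = 0.428). In aged soleus it was 0.07 (SE 0.21, adjusted p = 0.932) and in aged plantaris -0.33 (SE 0.36, adjusted p = 0.815). These fits share 1 spread between the young and aged libraries of a label, so a young SE draws on aged libraries too. The within-group SD of log2 CPM of Per1 was 0.73 aged and 0.30 young in the plantaris label, and 0.43 and 0.22 in soleus. With only the groups compared in the fit, 0 members passed in the young labelled plantaris libraries.

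Nr1d2 in both labels, and Per3 in soleus, did not overlap between training groups in the young libraries, without passing the test. With Per1 these are 3 members in young soleus and 2 in the labelled plantaris libraries, against 15.1% and 7.68% of all genes tested. Nr1d2 was at 92.2, 84.5, 101 and 109 CPM in sedentary and 118, 112, 140 and 118 CPM in PoWeR young soleus. In the young labelled plantaris libraries it was at 83.4, 94.7, 104 and 92.6 CPM and 119, 123, 120 and 137 CPM. The groups did not overlap in either label. The log2 fold changes were 0.36 (SE 0.16, adjusted p = 0.148) and 0.40 (SE 0.16, adjusted p = 0.301). Per3, whose D-boxes are shown above, had 0.67 (SE 0.37, adjusted p = 0.247) in young soleus and 0.73 (SE 0.33, adjusted p = 0.38) in the labelled plantaris libraries. For the last comparison, 1 sedentary library (11.8 CPM) reached above the lowest PoWeR library (11.6 CPM). The SE of both genes draw on the aged libraries too, which spread more widely. For Nr1d2 the within-group SD of log2 CPM was 0.33 aged and 0.15 young in soleus, and 0.33 and 0.11 in the plantaris label. For Per3 these were 0.73 and 0.36, and 0.65 and 0.35.

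In aged mice no member separated by training. Per2 in aged soleus had the lowest p, at 3.28 ± 1.20 CPM (SD, n = 5) sedentary and 5.09 ± 1.22 CPM (SD, n = 4) PoWeR. Its log2 fold change was 0.62 (SE 0.29, adjusted p = 0.379), and its libraries overlapped. The intervals (2 SE to each side) for Arntl were -0.19 to 0.47 in aged soleus, -0.45 to 0.43 in aged plantaris and -0.22 to 0.53 in young soleus. These libraries do not tell changes inside those bounds from no change.

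**Figure D3:**
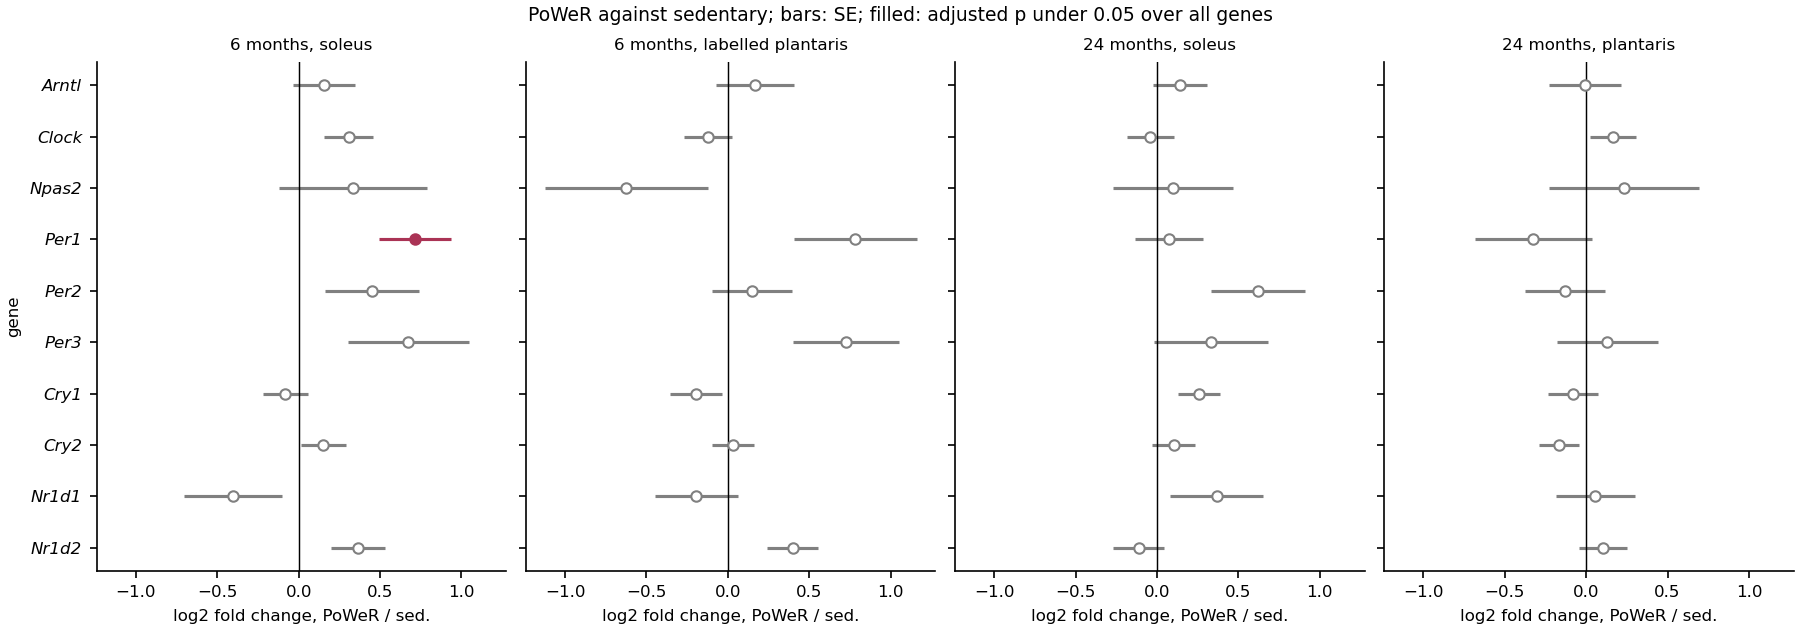
Log2 fold change of PoWeR over sedentary (horizontal axis) for each clock gene (vertical axis) in the 4 age and muscle label pairs. Points are edgeR estimates, bars 1 SE, filled points an adjusted p under 0.05; Per1 in young soleus at 0.71 is the filled point, and the aged panels have none.

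Lists that share inputs with the clock were read in the same contrasts. In young soleus, where 12.9% of all genes were called, 2 of 11 other clock transcription factors were higher with PoWeR and 0 lower, at a median log2 fold change of 0.28 against 0.04 over all genes. These were Rora (0.72, adjusted p = 0.0108) and Tef (0.49, adjusted p = 0.00838), the latter a D-box activator. Of 10 glucocorticoid targets 3 were higher and 0 lower, at a median of 0.80: Fkbp5 (1.28, adjusted p = 0.0307), Klf15 (0.67, adjusted p = 0.0456) and Klf9 (0.57, adjusted p = 0.0141). Fkbp5 encodes a chaperone partner of the glucocorticoid receptor, and Klf9 and Klf15 are transcription factors named above. Of 14 regulators of clock proteins tested 2 were higher, Ncor1 (0.36, adjusted p = 0.0321) and Prkaa2 (0.35, adjusted p = 0.0364). Of 10 immediate early genes 1 was lower, Egr1 (-2.10, adjusted p = 0.0125). The counts of 2 of 11, 2 of 14 and 1 of 10 are near the share of all genes. In the same contrast 2 of 6 slow fibre markers (Myl3 and Tnnc1) and 3 of 6 fast fibre markers (Tnni2, Tnnt3 and Mylpf) were lower, at log2 fold changes of -0.82 to -0.54. Their sums were 30168 to 38221 and 7356 to 9473 CPM in sedentary and 31776 to 39650 and 3381 to 8766 CPM in PoWeR mice. Further, 1 of 4 macrophage markers was higher, their sum being 10.5 to 22.4 CPM in sedentary and 26.5 to 43 CPM in PoWeR mice, and mitochondrial shares were 21.3 to 23.1% and 10.7 to 18.5%. Their part in the Per1 difference was not tested.

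In aged soleus 1 of 11 other clock transcription factors was higher with PoWeR, Tef (0.45, adjusted p = 0.0259), and 1 of 10 immediate early genes was lower, Dusp1 (-1.64, adjusted p = 0.00498). No glucocorticoid target or regulator passed there. In aged plantaris and in the young labelled plantaris libraries no gene of these 4 lists passed.

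Soleus and plantaris were compared in aged mice, where both muscles carried the fibre markers of their label: all 6 slow fibre markers were higher and all 6 fast fibre markers lower in soleus, in both training groups. In sedentary mice 2 of 10 members passed, against 32.9% of 14823 genes, and in PoWeR mice 1 of 10, against 22.5%. For the 4 PoWeR numbers, soleus and plantaris libraries of a number deviated together, and with the replicate block 3 members passed there, against 24.2% of all genes: Cry2 (0.50, adjusted p = 0.025), Cry1 (0.38, adjusted p = 0.0387) and Nr1d2 (-0.46, adjusted p = 0.00331). In sedentary mice, where 1 of 5 numbers did not deviate together, the block gave 4 members, against 35.2% of all genes, adding Per3 (-0.51, adjusted p = 0.0377) and Nr1d2 (-0.25, adjusted p = 0.0417). The members' median absolute log2 difference was 0.32 and 0.24, against 0.33 and 0.30 over all genes.

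Clock was higher in aged sedentary soleus than in plantaris. It was at 50.6, 59.6, 61.8, 50.0 and 48.8 CPM in soleus and at 41.5, 35.8, 44.9, 47.5 and 36.1 CPM in plantaris, with no overlap. The log2 difference was 0.41 (SE 0.12, adjusted p = 0.00924), and the call held in all 10 left-out fits. In PoWeR mice the Clock difference was 0.21 (SE 0.13, adjusted p = 0.285). Per2 was lower in aged sedentary soleus (1.47 to 4.68 CPM) than in plantaris (4.93 to 5.94 CPM), without overlap, at a log2 difference of -0.73 (SE 0.26, adjusted p = 0.033). That call held in 5 of 10 left-out fits. In PoWeR mice the Per2 difference was 0.03 (SE 0.28, adjusted p = 0.963). Cry2 was higher in PoWeR soleus, at 50.8, 70.4, 74.5 and 68.4 CPM against 57.1, 47.8, 44.8 and 38.1 CPM, with overlap, and a log2 difference of 0.50 (SE 0.14, adjusted p = 0.013). That Cry2 call, in the fit without the block, held in 6 of 8 left-out fits. Nr1d2, called in PoWeR mice with the block but not in the fit without it, was at 83.4, 48.8, 75.3 and 99.4 CPM in soleus. The plantaris libraries of the same numbers had 105, 65.9, 114 and 141 CPM. Fits with the block were not repeated with a library left out.

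Arntl did not differ detectably between the aged muscles, with log2 differences of 0.08 (SE 0.23, adjusted p = 0.824) and 0.23 (SE 0.26, adjusted p = 0.594). Training did not alter these muscle differences detectably: 0 of 10 members and 0% of 14823 genes passed the interaction, no member had an unadjusted p under 0.05, against 12% of all genes, and DESeq2 called 0 members. Of the other clock transcription factors, 10 of 11 were tested here and 2 were lower in sedentary soleus, Rora (-0.82, adjusted p = 6.74e-05) and Tef (-0.77, adjusted p = 0.00202). Rora was also lower in PoWeR soleus (-0.83, adjusted p = 0.000341). Of 10 glucocorticoid targets 3 were lower in sedentary soleus, Ddit4 (-2.75, adjusted p = 0.0304), Tsc22d3 (-2.40, adjusted p = 7.26e-07), an anti-inflammatory leucine zipper factor, and Sgk1 (-1.62, adjusted p = 0.00447), a kinase. In PoWeR soleus 1 was lower, Tsc22d3 (-1.44, adjusted p = 0.0006). Of 10 immediate early genes 2 were lower in sedentary soleus, Nr4a3 (-2.66, adjusted p = 0.000777) and Nr4a1 (-1.73, adjusted p = 0.00446), and Nr4a1 was lower in PoWeR soleus (-1.98, adjusted p = 0.00675). Of 14 regulators of clock proteins 3 were higher and 2 lower in sedentary soleus, led by Timeless (0.95, adjusted p = 0.00619), Prkaa2 (-0.73, adjusted p = 1.75e-05), Gsk3b (0.41, adjusted p = 0.00125) and Ncor1 (0.32, adjusted p = 0.00227). In PoWeR soleus 1 was lower, Prkaa2 (-0.71, adjusted p = 0.000146). Against 32.9% and 22.5% of all genes, these counts are near or below the background.

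In young mice the soleus and the labelled plantaris libraries, which look alike by myosin, were compared as labelled. The digits that recur between their titles were not modelled, so any sharing of animals is not in these tests. In sedentary and PoWeR mice 0 of 10 members passed with edgeR and with DESeq2, against 3.26% and 2.08% of 15132 genes. At an unadjusted p under 0.05 there were 2 members in sedentary mice (Clock and Npas2), against 20.4% of all genes, and 1 in PoWeR mice (Nr1d1), against 15.6%. The Clock log2 difference in sedentary mice was -0.45 (SE 0.17, adjusted p = 0.125), opposite in sign to that between the aged muscles. Of the other clock lists 1 gene passed, Ncor1 in sedentary mice (-0.53, adjusted p = 0.0424).

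The spread among libraries of a group differed between genes and between ages. It was summarised as the pooled within-group SD of log2 CPM over the 18 aged and the 16 young libraries, as a description without a test. Arntl, Per1, Per3, Cry1, Nr1d1 and Nr1d2 spread more widely in aged libraries, at aged to young SD ratios of 1.58 to 2.47. Young titles that join numbers may or may not stand for pooled animals, and pooling and age cannot be told apart here. The aged libraries also include fast plantaris, which by myosin the young ones do not, so muscle enters this pooled contrast too. Nr1d2 had an SD of 0.33 aged and 0.13 young, and Per1 0.60 and 0.26. Nr1d1 had 0.55 and 0.28, Per3 0.69 and 0.36, Cry1 0.24 and 0.14, and Arntl 0.39 and 0.25. Npas2 (0.78 and 0.67), Cry2 (0.20 and 0.18) and Per2 (0.44 and 0.44) differed little, and Clock had 0.19 aged and 0.27 young. Over 9490 genes above 5 CPM the median SD was 0.20 aged and 0.22 young, and the median aged to young ratio was 0.98. The ratio was exceeded by 2.39% of those genes for Nr1d2, 3.47% for Per1, 6.15% for Nr1d1 and 6.63% for Per3. For Cry1 it was exceeded by 10.5% and for Arntl by 14.7%. For Nr1d2, Per1, Nr1d1 and Per3 the wider aged spread held in soleus taken alone, for example 0.33 and 0.15 for Nr1d2. Young soleus titles may join numbers too, so pooling and age cannot be told apart there either. In the plantaris label Nr1d2 had 0.33 and 0.11, but there the aged libraries carry fast myosin and the young ones slow myosin. Muscle and age cannot be told apart in that contrast. Within groups, Per1 in sedentary soleus ran from 35.8 to 60.9 CPM in aged and from 34.7 to 44.9 CPM in young libraries. In aged sedentary plantaris it ran from 29.8 to 90.9 CPM.

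**Figure D4:**
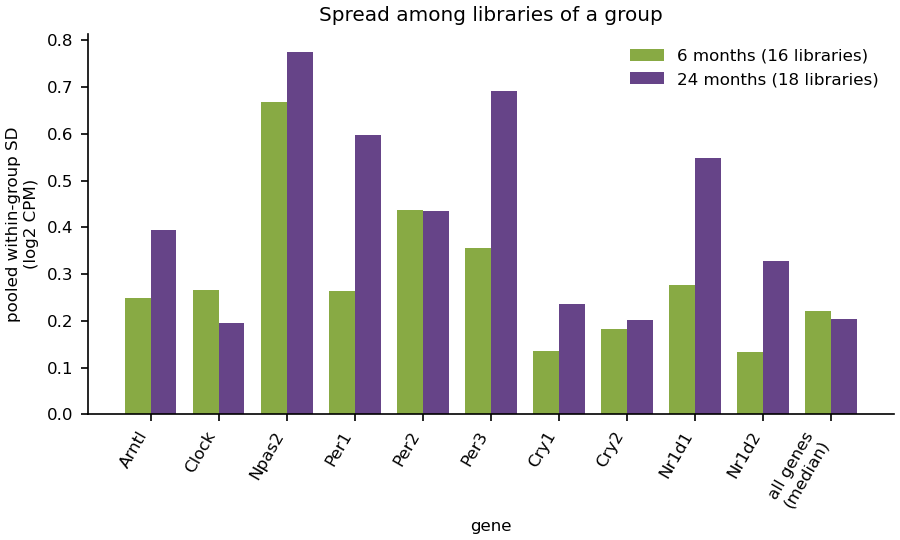
Pooled within-group SD of log2 CPM (vertical axis, from 0) of each clock gene and the median over genes above 5 CPM (horizontal axis), green for the 16 young and purple for the 18 aged libraries. Nr1d2 stands at 0.13 and 0.33 and Per3 at 0.36 and 0.69, while the median gene is at 0.22 and 0.20.

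In aged mice, soleus and plantaris libraries carry shared numbers, 5 sedentary and 4 PoWeR, though the labels do not say that a number is a mouse. Values centred on their group means were correlated across these 9 numbers, for every gene, with an exact two-sided permutation test within training groups (2880 arrangements, smallest p 0.000347). No member and 0% of 14823 genes passed after adjustment, where the smallest adjusted p was 0.585. At an unadjusted p under 0.05 there were 2 members, against 7.08% of all genes. Pearson's r was above 0 for 9 of 10 members and for 64.8% of all genes, with medians of 0.63 and 0.17.

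Nr1d2 had r = 0.84 (exact permutation p = 0.0417, adjusted p = 0.699) and Spearman's rho = 0.72 (exact permutation p = 0.0594). Without the 2 numbers farthest from the median in soleus, r was 0.78. Per3 had r = 0.77 (exact permutation p = 0.0316, adjusted p = 0.691) and rho = 0.63 (exact permutation p = 0.0944), and r = 0.62 without those 2 numbers. Nr1d1 had r = 0.73 (exact permutation p = 0.0712, adjusted p = 0.735), which fell to 0.25 without 2 numbers and so rests on them. Among PoWeR mice, Nr1d1 in soleus and plantaris was at 147 and 134 CPM for number 10, 76.4 and 70.1 for number 12, 240 and 206 for number 14, and 190 and 153 for number 15. Those 4 numbers kept their order in both muscles. In sedentary mice they did not, with number 12 at 157 CPM in soleus and 101 CPM in plantaris. Arntl had r = 0.30 (exact permutation p = 0.44, adjusted p = 0.908), and Cry2 alone was below 0, at r = -0.50 (exact permutation p = 0.261, adjusted p = 0.849).

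**Figure D5:**
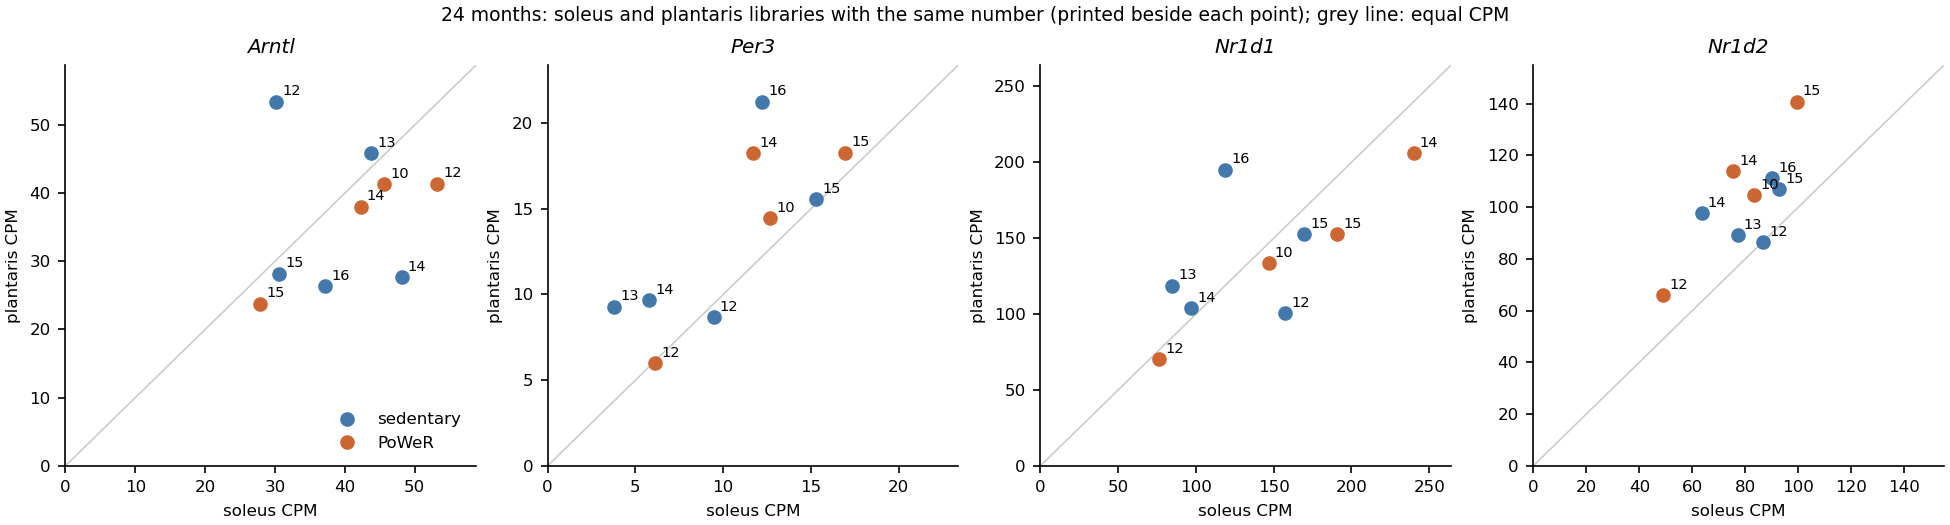
CPM in aged plantaris (vertical axis) against CPM in the aged soleus library of the same number (horizontal axis) for 4 clock genes. Points are numbers, blue sedentary and orange PoWeR, and the grey line marks equal CPM; Nr1d2 follows a rising course (r = 0.84 on centred log2 values) and Arntl does so less (r = 0.30).

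How the other members moved with Arntl from library to library was examined within groups, over the 9 aged and the 8 young soleus libraries on group-centred log2 CPM. Over all 17 soleus libraries 0% of 14933 genes passed the adjusted permutation test against Arntl, as did 0% of 15279 genes over the plantaris-labelled libraries, so no relation below is a call. All 9 other members were computed in each label. In aged soleus Npas2, like Arntl a target of REV-ERB repression, followed it (r = 0.91, exact permutation p = 0.00174), and in aged plantaris r was 0.80 (exact permutation p = 0.00174). Over the 17 soleus libraries r for Npas2 was 0.57 and rho 0.54 (permutation p = 0.0263 and 0.039, adjusted p = 0.998), and r was 0.42 without the 2 farthest libraries. Nr1d2 had the opposite sign, at r = -0.83 in aged soleus (exact permutation p = 0.0181) and -0.66 in aged plantaris (exact permutation p = 0.033). Over the 17 soleus libraries its r was -0.59 and rho -0.50 (permutation p = 0.0698 and 0.0759, adjusted p = 0.998), and r was -0.28 without the 2 farthest, so that relation rests on them. Per3 in aged soleus had r = -0.78 (exact permutation p = 0.0278), and Nr1d1 r = -0.74 (exact permutation p = 0.0538). In aged plantaris Per3 had r = -0.61 (exact permutation p = 0.0615) and Nr1d1 r = -0.45 (exact permutation p = 0.217). Over the 17 soleus libraries r was -0.61 for Per3 and -0.37 for Nr1d1 (permutation p = 0.0349 and 0.279, adjusted p = 0.998 for both). Without the 2 farthest libraries r was -0.48 for Per3 and -0.11 for Nr1d1. In young soleus Nr1d1 had r = 0.87 (exact permutation p = 0.0226), with the opposite sign, and in the young labelled plantaris libraries r = -0.05 (exact permutation p = 0.918). Also in young soleus, r was 0.16 for Npas2 (exact permutation p = 0.76), 0.38 for Nr1d2 (exact permutation p = 0.38) and 0.02 for Per3 (exact permutation p = 0.979). Clock had r = 0.52 there (exact permutation p = 0.233) and Cry2 r = -0.55 (exact permutation p = 0.214). In aged soleus Clock had r = 0.65 (exact permutation p = 0.107), and in aged plantaris r = -0.13 (exact permutation p = 0.731). Over the 17 soleus libraries r for Clock was 0.57 (permutation p = 0.0347, adjusted p = 0.998), and 0.58 without the 2 farthest. Per1, Per2, Cry1 and Cry2 in aged soleus had r of 0.15, -0.34, 0.44 and -0.26, with exact permutation p from 0.281 to 0.749. Whether the ages differ in these relations was not tested.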

How the data were processed

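RNA-seq of 34 muscle libraries was deposited as 1 table of 23011 genes. Per the submitters' processing notes, the tools named are STAR 2.7.3a, Partek and DESeq2 on mm10. Which tool made the counts and whether counting used strand are not given in the sources used here. The values deposited by the authors are expected counts (73.3% whole), and they were rounded here. All columns of per-sample values were used (0 left out). Rows start where GENCODE genes of the members start on mm10.

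Fits used edgeR 4.0.16 (R 4.3.3): TMM scaling, filterByExpr (minimum count 10, minimum total 15), a robust quasi-likelihood test and Benjamini-Hochberg adjustment over all genes tested. A call is an adjusted p under 0.05. Each fit held all groups of 1 muscle label (17 libraries each), or all 18 aged or 16 young libraries for muscle comparisons, so that groups share 1 estimate of the spread. CPM were TMM-scaled over all libraries, and log2 CPM used a prior count of 2. SE is the absolute log2 fold change divided by the square root of F. The code was tested on simulated data.

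Alternatives were DESeq2 1.42.0, DESeq2-type size factors, no filter, only the groups compared (for interactions, all 8 groups), a replicate block for aged numbers, and each library left out. Added after the data were seen were a term for libraries with under 0.7% of counts in an rRNA repeat gene, and a fit without 2 aged plantaris libraries. The members and all gene lists were chosen with earlier results of these data known. Text names all 10 members, up to 4 called genes per other list and comparison by size of change (1 is not reported here), and for Arntl and Nr1d1 the 5 most and 5 least alike genes by Pearson r. Same-numbered aged soleus and plantaris libraries deviated together by more than r = 0.1 for all 4 PoWeR numbers (0.13 to 0.24), which were taken as pairs by this rule, and for 4 of 5 sedentary numbers, which were not. The labels do not say that libraries of a group are separate animals, so a p-value weighs a difference against the spread of these libraries alone, which may be technical.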

Additional observations from a re-analysis of the deposited data

Results flagged for a closer look

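In 4 of 80 sets of a gene and a group, 1 library lay far from the rest by Dixon's criterion. Chance alone gives about 1 in 20 such sets, so this number is what chance gives. Npas2, the Clock relative, was at 7.0 CPM in aged sedentary soleus library 14, against 2.58 to 3.6 CPM in the other 4. Per1 was at 94.3 CPM in aged PoWeR plantaris library 15, against 29.3 to 38.3 CPM in the other 3, and this value sets much of the SD of 30.6 CPM in that group. Per3 was at 5.59 CPM in young sedentary soleus library 2, against 8.32 to 8.87 CPM in the others. Cry1 was at 21.4 CPM in aged PoWeR soleus library 14, against 14.8 to 15.6 CPM in the others, and the higher Cry1 with age in PoWeR soleus kept its call in all 8 fits that left out a library.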

How the results depend on the processing

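Of 670 single-gene values under other settings, 657 kept their direction and side of the threshold, 8 lost a call and 5 gained one. Of 1290 with 1 library left out, 1259 kept theirs, 26 lost a call and 5 gained one. None reversed, where direction was read only for values called in either fit. The count of members called with PoWeR in young soleus went from 1 to 0 with no filter on low counts and to 0 with the rRNA repeat term, and was 0 to 1 with a library left out. For soleus against plantaris the count with a library left out was 1 to 2 in sedentary and 0 to 2 in PoWeR aged mice. In PoWeR mice it was 0 with only the groups compared, and 2 without aged plantaris sedentary library 16 (slow fibre markers 110 CPM, the lowest) and PoWeR library 12 (adipocyte markers 229 CPM, the highest). The cause was not tested. With the replicate block the counts were 4 in sedentary (Per3 and Nr1d2 gained) and 3 in PoWeR mice (Cry1 and Nr1d2 gained). They were 0 in both aged PoWeR effects and the muscle interaction, and the block changed no other member's call. For the PoWeR effects the block joined sedentary and PoWeR libraries of 1 number. The labels do not pair these, so this setting is no check of the PoWeR effects. For sedentary number 12 the same-number r was 0.02 and its best match was 15, so by the rule used here the sedentary numbers were not taken as pairs. Sedentary numbers 13 to 16 had r of 0.12 to 0.23, and 8 of 9 numbers matched best with their own. Whether a sedentary number stands for 1 mouse is thus not settled here. Between training groups r was -0.10 to 0.07. DESeq2-type scaling moved the median of all genes by under 0.1. Npas2 at 6 months, with at most 3.03 CPM, and Per2 are the members that depth limits most.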

Other observations

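The genes most like Arntl and Nr1d1 from library to library were listed by Pearson r of log2 CPM centred on the 8 group means, over 34 libraries and 9481 genes above 5 CPM. These are descriptions without a test, and the libraries share group composition and depth. For Arntl the highest were Zfyve1 (r = 0.69), Epc1 (0.69), Slc43a1 (0.62), Sesn1 (0.61) and Alpk2 (0.61). The lowest were Dbp (-0.71), Pik3r2 (-0.64), Fuca2 (-0.58), Foxo6os (-0.56) and Pde7b (-0.56). Dbp, a textbook output of the loop, had the lowest r of the 9481 genes. The part of the unstated hour of collection in this was not tested. For Nr1d1 the highest were Bhlhe40 (0.87), Sema6c (0.83), Tnk2 (0.81), Pkia (0.76) and Smtnl2 (0.76), where Bhlhe40 is a repressor of the loop. The lowest were Enc1 (-0.81), Mt1 (-0.80), Rassf4 (-0.80), Eif1a (-0.79) and Pi4k2a (-0.78). Among members, Nr1d2 (0.75) and Per3 (0.72) were near Nr1d1. The others were not: Per2 (0.08), Clock (0.04), Cry1 (-0.06), Cry2 (-0.11), Per1 (-0.29) and Arntl (-0.37). With Arntl, r was 0.44 for Cry1, 0.31 for Clock and 0.16 for Per1. It was -0.11 for Cry2, -0.28 for Per2, -0.48 for Per3 and -0.59 for Nr1d2.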
